A study of Rattus norvegicus with 12 samples.

Results

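The genes described here are Cyp7a1 and 9 other genes of bile acid synthesis, regulation, conjugation and transport: Cyp8b1, Cyp27a1, Cyp7b1, Nr0b2, Nr1h4, Baat, Slc27a5, Slc10a1 and Abcb11. They were chosen by symbol, with the low level of Cyp7a1 on the naproxen arrays already known, so its differences in the comparisons that use those arrays are descriptions, not tests. Of the 10 genes, 8 had a probe set that carried their symbol alone in the array's annotation, out of 13215 genes named in that way, and each of the 8 had a single one. Cyp7b1 and Abcb11 were not analysed here, so the values below hold no measurement of the main canalicular bile salt export pump. The livers came from Sprague Dawley rats that were housed individually with free food and water under a 12 h light and dark cycle, and 1 array was run per rat. For 7 days 4 of the 12 rats were fed naproxen (400 mg/kg diet), 4 were fed NO-naproxen (550 mg/kg diet) and 4 were fed the control diet without drug. Naproxen is a nonsteroidal anti-inflammatory drug that inhibits cyclooxygenases, and NO-naproxen is naproxen joined to a group that releases nitric oxide. The labels name each sample a biological replicate and give no time of day for the collection of the livers.

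Bile acids are made from cholesterol in hepatocytes, where Cyp7a1 hydroxylates the 7-alpha position and sets the pace of the classic pathway. Cyp8b1 then decides the share of cholic acid, and Cyp27a1 opens the alternative pathway and oxidises the side chain. Bile acids act on the nuclear receptor FXR, encoded by Nr1h4, which induces the corepressor SHP, encoded by Nr0b2, and SHP represses Cyp7a1. Slc27a5 and Baat activate bile acids and join them to taurine or glycine, Slc10a1 takes them up from portal blood, and Abcb11 pumps them into bile.

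The arrays are described first by what touches every value below. Array medians ranged from 89.8 to 118 intensity units. The interquartile range of the log2 signals was 2.34 ± 0.16 with naproxen, 2.36 ± 0.23 with NO-naproxen and 2.10 ± 0.19 in controls (SD, n = 4 each), and the 2 narrowest arrays were controls 3 and 4. Hepatocyte markers, 8 of 10 of which were measured, summed to between 59648 and 64134 intensity units with naproxen, 62366 and 70996 with NO-naproxen and 61954 and 67984 in controls, so the groups overlapped. Of 9 measured Kupffer cell and macrophage markers, 9 were above control with naproxen and 8 with NO-naproxen, with sums between 4723 and 7012 with naproxen, 5002 and 8003 with NO-naproxen and 4284 and 6309 in controls. Of 3 measured endothelial markers all were above control in both comparisons, with sums between 1349 and 1552 with naproxen, wholly above the 921 to 1228 of controls, and between 1138 and 1446 with NO-naproxen. Of 6 measured stellate cell markers 6 were above control with naproxen and 5 with NO-naproxen, with overlapping sums of 2310 to 3274 with naproxen, 2260 to 3221 with NO-naproxen and 1722 to 2890 in controls. The largest differences in these lists were those of the stellate and pericyte marker Rgs5, with a log2 fold change of 0.71 with naproxen, and of the leukocyte marker Ptprc, with 0.67 with NO-naproxen. Sums of 7 pericentral and of 7 periportal hepatocyte markers overlapped between the groups. With NO-naproxen 4 periportal markers were above control, among them Cdh1 (0.62), and 3 below. The 1 measured red blood cell marker, Hbb-b1, measured 0.38 with naproxen and 0.65 with NO-naproxen. The part of cell composition in the results below was not tested. In whole liver, fewer cells of a type and less RNA per cell cannot be told apart. Of 5 measured cholangiocyte markers 2 lay in the range of olfactory and vomeronasal receptor probe sets, which serve here as a measure of background (up to 6.44 on the log2 scale). So did 3 of 4 measured ileal enterocyte markers. All 8 measured bile acid genes had mean levels above that range.

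Promoters are shown for the measured genes whose windows held the NR5A2 motif, the HNF4A motif or the E-box given below. The window of Slc10a1, which held only the nuclear receptor site AGGTCA, is not shown. RefSeq promoter windows (GRCr8, 250 bases before to 50 after the start) were found for 6 of the 8 genes. None was found for Cyp7a1 or Nr1h4, so the promoters of these genes were not searched. Capitals mark the motif, and the sequences run 5′ to 3′ on the strand of the gene. Cyp8b1 (chr8:130457639-130457717, minus strand) and Cyp27a1 (chr9:83713282-83713339, plus strand) held the NR5A2 motif CAAGGTC or its reverse complement, which was in 4.20% of 33469 promoters. NR5A2, also called LRH-1, is a nuclear receptor that drives bile acid enzyme genes and is the partner on which SHP acts. Baat (chr5:68656183-68656263, minus strand) held the HNF4A motif CAAAGTCCA, present in 0.391% of the promoters, and Nr0b2 (chr5:151062931-151063008, plus strand) held the E-box CACGTG, present in 6.42%.
Cyp8b1: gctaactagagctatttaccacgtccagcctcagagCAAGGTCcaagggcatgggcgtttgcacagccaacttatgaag
Cyp27a1: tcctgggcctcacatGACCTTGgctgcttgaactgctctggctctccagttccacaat
Baat: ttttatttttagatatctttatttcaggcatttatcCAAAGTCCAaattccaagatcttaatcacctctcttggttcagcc
Nr0b2: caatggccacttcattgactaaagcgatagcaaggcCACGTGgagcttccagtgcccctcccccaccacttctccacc
The nuclear receptor site AGGTCA, which the motif in Cyp27a1 overlaps, was in 16.2% of promoters and in the windows of Cyp27a1 and Slc10a1. The D-box TTATGNAA (3.66% of promoters), the REV-ERB site TAGGTCA (2.63%) and the inverted repeat IR1 of FXR (0.027%) were in 0 of the 6 windows. Both strands were searched, and these matches describe letters and not bound sites.

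Cyp7a1 (Entrez Gene 25428) was lower on every naproxen array than on any control array. Its intensity was 1355, 879, 854 and 774 on the 4 naproxen arrays, 993, 2179, 2009 and 1148 on the 4 NO-naproxen arrays and 1942, 1992, 1804 and 2189 on the 4 control arrays. The naproxen arrays lay close together except for the first. The NO-naproxen arrays split, with 2 at control levels and 2 within the span of the naproxen arrays. Mean intensity was 965 ± 263 with naproxen, 1582 ± 598 with NO-naproxen and 1982 ± 160 in controls (SD, n = 4 each). The control arrays had the smallest spread of the 3 groups in these values.

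The log2 fold change of Cyp7a1 was -1.06 ± 0.25 (SE, 95% interval -1.58 to -0.53) with naproxen against control, a level 2.08-fold lower. NO-naproxen measured -0.40 ± 0.25 against control, with an interval of -0.92 to 0.13 that includes 0. Set against naproxen, NO-naproxen measured 0.66 ± 0.25 (0.13 to 1.18), at unequal doses of 550 and 400 mg/kg, and naproxen array 1 lay above 2 of the NO-naproxen arrays. In order of level, naproxen was lowest and NO-naproxen lay between it and control. NO-naproxen did not differ from control beyond its spread.

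The study selected genes at an unadjusted p under 0.05 with at least a 1.5-fold change, called the criterion here. By that criterion 4.97% of the 19418 probe sets were lower and 0.875% higher with naproxen against control, 2.02% lower and 1.78% higher with NO-naproxen against control, and 0.144% lower and 0.427% higher with NO-naproxen against naproxen. Cyp7a1 fell on the lower side in the naproxen comparison and on the higher side between the drugs, both of which use the naproxen arrays that led to its choice, so nothing is read from this. With NO-naproxen against control, which uses none of them, it did not meet the criterion. As a description, over 23 alternative settings the log2 fold change of Cyp7a1 lay between -1.23 and -0.94 with naproxen against control and between 0.48 and 0.85 with NO-naproxen against naproxen. After Benjamini-Hochberg adjustment limma called 0.0% of probe sets in all 3 comparisons. At an unadjusted p under 0.05 stood 2458 probe sets with naproxen against control (smallest adjusted p = 0.245), 2011 with NO-naproxen against control (0.468 at the least after adjustment) and 373 between the drugs (1 after adjustment). The naproxen arrays lay wholly below the control arrays for 2.4% of probe sets and wholly above for 2.09%, and the NO-naproxen arrays lay wholly above the controls for 2.0%.

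**Figure D1:**
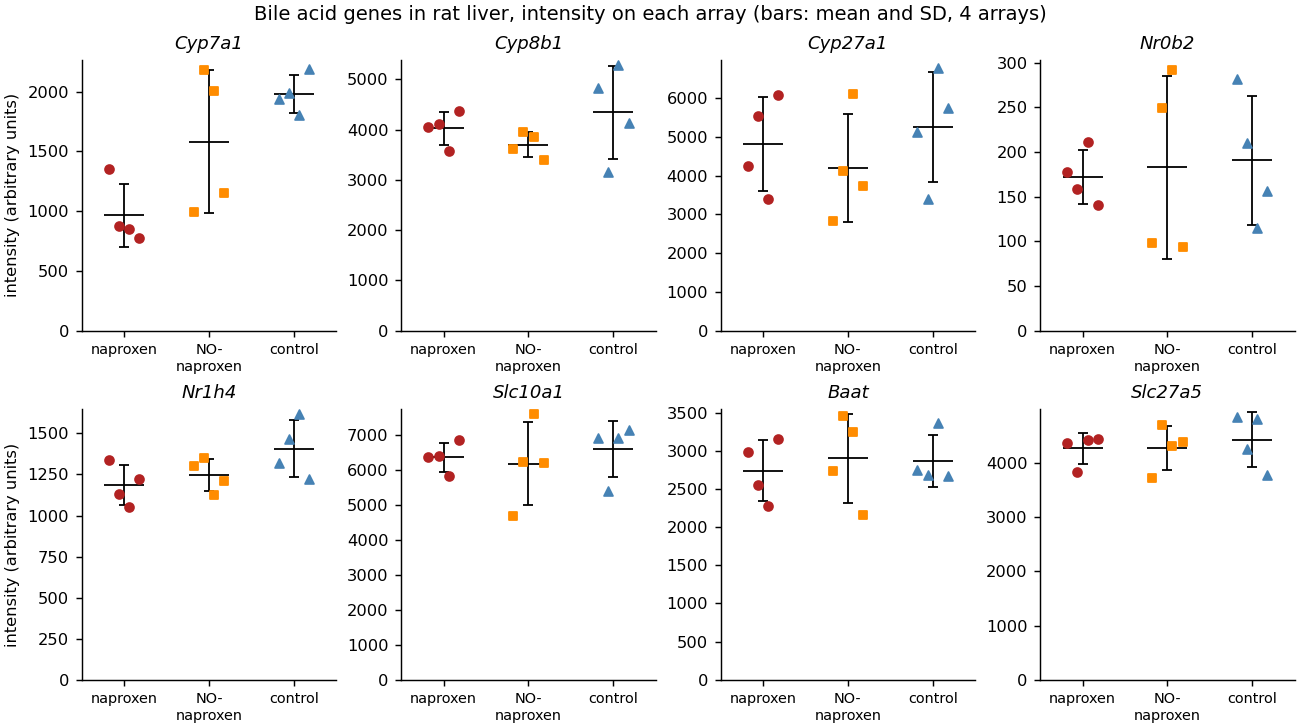
Intensity (arbitrary units, axes from 0) of the 8 measured bile acid genes on each array, by diet, with the mean and SD of 4 arrays. Cyp7a1 on the 4 naproxen arrays (774 to 1355) sits below the 4 control arrays (1804 to 2189), and for the other 7 genes the naproxen and control arrays overlap.

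For the enzymes that act after or beside Cyp7a1 the arrays of the 3 diets overlapped. Cyp8b1 (Entrez Gene 81924), the sterol 12-alpha-hydroxylase, had intensities of 4045, 4109, 3576 and 4368 with naproxen, 3609, 3947, 3862 and 3394 with NO-naproxen and 4820, 3149, 5279 and 4128 in controls. The control arrays spanned both drug groups. Its log2 fold changes were -0.09 (-0.46 to 0.28) with naproxen and -0.21 (-0.58 to 0.16) with NO-naproxen against control.

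Cyp27a1 (Entrez Gene 301517), the mitochondrial sterol 27-hydroxylase, had intensities of 4248, 5549, 3400 and 6089 with naproxen, 2821, 4109, 6110 and 3732 with NO-naproxen and 5134, 3386, 6786 and 5739 in controls. All 3 groups varied by a similar amount, and they overlapped. Its log2 fold change was -0.12 (-0.68 to 0.44) with naproxen and -0.34 (-0.90 to 0.22) with NO-naproxen against control. The naproxen interval includes a 1.5-fold lower level and overlaps that of Cyp7a1 (-1.58 to -0.53).

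The FXR gene Nr1h4 (Entrez Gene 60351) had intensities of 1338, 1128, 1053 and 1224 with naproxen, 1299, 1348, 1123 and 1213 with NO-naproxen and 1318, 1465, 1620 and 1222 in controls. In each drug group 2 of 4 arrays lay below the lowest control. With naproxen its log2 fold change was -0.24 (-0.57 to 0.09), and with NO-naproxen it was -0.17 (-0.50 to 0.16), both against control.

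The gene of the repressor SHP, Nr0b2 (Entrez Gene 117274), had intensities of 178, 159, 212 and 141 with naproxen, 97.6, 249, 292 and 93.2 with NO-naproxen and 282, 210, 115 and 157 in controls. The naproxen arrays lay inside the control range. On the NO-naproxen arrays it was high on arrays 2 and 3 and low on arrays 1 and 4, which are also the arrays where Cyp7a1 was high and low. Its log2 fold changes of -0.08 (-0.78 to 0.61) with naproxen and -0.15 (-0.84 to 0.55) with NO-naproxen had the widest intervals of the 8 genes.

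Of the conjugation genes, Slc27a5 (Entrez Gene 79111), the bile acid coenzyme A ligase, had intensities of 4376, 3842, 4418 and 4449 with naproxen, 3722, 4700, 4311 and 4393 with NO-naproxen and 4854, 4261, 4808 and 3784 in controls. Baat (Entrez Gene 29725), the amino acid transferase, had 2989, 2547, 2277 and 3149 with naproxen, 2735, 3456, 3251 and 2162 with NO-naproxen and 2745, 2684, 3370 and 2664 in controls. The groups overlapped for both genes. Log2 fold changes with naproxen against control were -0.05 (-0.37 to 0.28) for Slc27a5 and -0.07 (-0.46 to 0.32) for Baat, and with NO-naproxen they were -0.05 (-0.37 to 0.28) and 0.0015 (-0.39 to 0.39).

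Slc10a1 (Entrez Gene 24777), the sodium-dependent uptake transporter NTCP, had intensities of 6370, 6404, 5820 and 6841 with naproxen, 4681, 6230, 7588 and 6196 with NO-naproxen and 6899, 5396, 6909 and 7149 in controls. The NO-naproxen arrays held both the lowest and the highest of the 12 values. Against control its log2 fold change was -0.04 (-0.41 to 0.32) with naproxen and -0.11 (-0.47 to 0.26) with NO-naproxen.

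**Figure D2:**
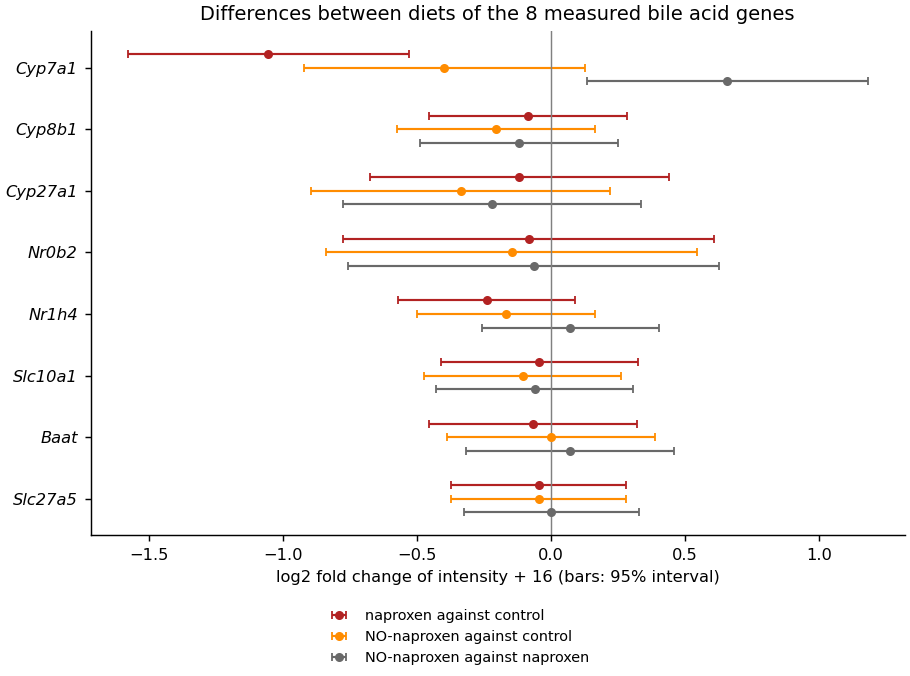
Log2 fold change of intensity + 16 with its 95% interval for the 8 measured bile acid genes in 3 comparisons, from the fit of 12 arrays. The 2 values of Cyp7a1 that use the naproxen arrays (-1.06 and 0.66) describe a gene chosen for its level there, and the intervals of the other 7 genes all include 0.

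By the criterion 4.97% of probe sets were lower and 0.875% higher with naproxen, and 2.02% and 1.78% with NO-naproxen against control. Between the drugs 0.144% were lower and 0.427% higher. Of the 7 genes other than Cyp7a1, 0 met the criterion in any comparison, which at such shares says little about them. Their log2 fold changes lay between -0.24 and -0.04 with naproxen against control, -0.34 and 0.0015 with NO-naproxen against control, and -0.22 and 0.07 with NO-naproxen against naproxen. Over these 7 the median was -0.08 with naproxen and -0.15 with NO-naproxen against control, beside -0.03 and 0.0004 over all probe sets. The naproxen values were below 0 for 7 of 7 and the NO-naproxen values for 6 of 7, and both comparisons share the control arrays. These signs depended on the processing. Of the 21 values of the other 7 genes in the 3 comparisons, 15 changed sign in at least 1 of the 23 settings. With naproxen against control, Nr1h4 alone of these 7 stayed below 0 in all 23.

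Beyond the 10 genes, 55 of 69 genes on 4 wider lists were measured, and in either comparison with control 0 of them were lower by the criterion. Higher were 4 with naproxen and 5 with NO-naproxen against control, and 0 differed between NO-naproxen and naproxen. Of all probe sets, 4.97% were lower and 0.875% higher by the criterion with naproxen, as above. With NO-naproxen 2.02% were lower and 1.78% higher, and between the drugs 0.144% were lower and 0.427% higher. The median log2 fold change over the 55 was 0.04 with naproxen and 0.09 with NO-naproxen, beside -0.03 and 0.0004 over all probe sets.

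Of 12 other synthesis enzymes, by the criterion 1 was higher with NO-naproxen and 0 with naproxen, beside 1.78% and 0.875% of all probe sets. It was Cyp39a1, an oxysterol 7-alpha-hydroxylase that acts on 24-hydroxycholesterol. Its intensity was 944, 709, 757 and 808 with naproxen, 1189, 1550, 738 and 752 with NO-naproxen and 722, 716, 677 and 541 in controls. All NO-naproxen arrays lay above the controls, but only arrays 1 and 2 by a wide margin. With NO-naproxen its log2 fold change was 0.60 ± 0.22 (SE), and with naproxen 0.27 ± 0.22. Without NO-naproxen 1, NO-naproxen 2 or control 4 it no longer met the criterion, as in 4 other settings. Acox2 lay wholly above the controls with naproxen (log2 fold change 0.31) and NO-naproxen (0.43), without meeting the criterion. Arrays lay wholly above the controls for 2.09% of all probe sets with naproxen and 2.0% with NO-naproxen.

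On the list of bile acid and biliary lipid transport, 13 other genes were measured, among them the enzyme Ephx1. By the criterion 1 was higher with naproxen and 0 with NO-naproxen, beside 0.875% and 1.78% of all probe sets. It was Abcg5, which with Abcg8 forms the canalicular pump for cholesterol and plant sterols. Abcg5 had intensities of 718, 294, 561 and 386 with naproxen, 167, 387, 665 and 177 with NO-naproxen and 149, 382, 126 and 207 in controls. On 3 of 4 naproxen arrays it was above the highest control. The log2 fold change was 1.17 ± 0.41 (SE, 0.30 to 2.03) with naproxen and 0.55 ± 0.41 (-0.31 to 1.42) with NO-naproxen. It did not meet the criterion without controls 3 and 4, the 2 arrays of narrowest spread, where it was 0.91.

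Its partner Abcg8 followed the same order of arrays with naproxen, at 560, 146, 473 and 183, and had 37.2, 262, 586 and 63.5 with NO-naproxen and 128, 345, 51.2 and 156 in controls. The highest and lowest arrays of each diet were the same for both genes. The log2 fold change of Abcg8 was 0.98 ± 0.66 (SE, -0.43 to 2.38) with naproxen and 0.06 ± 0.66 with NO-naproxen, neither past the criterion. The region between these genes is shown because they start 206 bases apart and run in opposite directions, so that their RefSeq promoter windows share 295 bases (GRCr8, chr6:15717686-15717980, printed on the plus strand). Capitals mark the first 10 transcribed bases of Abcg8, on the minus strand, on the left and of Abcg5 on the right. None of the 7 motifs searched above was found in it.
Abcg5 and Abcg8: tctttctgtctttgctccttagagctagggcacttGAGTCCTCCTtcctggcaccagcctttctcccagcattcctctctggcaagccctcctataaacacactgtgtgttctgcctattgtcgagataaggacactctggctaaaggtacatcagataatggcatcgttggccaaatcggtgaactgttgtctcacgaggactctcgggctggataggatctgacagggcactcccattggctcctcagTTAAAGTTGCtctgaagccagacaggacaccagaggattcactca

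Of 26 measured regulators, by the criterion 3 were higher with naproxen and 4 with NO-naproxen, beside 0.875% and 1.78% of all probe sets. Ppargc1a, the coactivator PGC-1alpha of fasting metabolism, had intensities of 515, 504, 745 and 432 with naproxen, 387, 776, 393 and 535 with NO-naproxen and 363, 343, 127 and 218 in controls. Both drug groups lay wholly above the controls, as for 2.09% of all probe sets with naproxen and 2.0% with NO-naproxen. Its log2 fold change was 1.09 ± 0.30 (SE) with naproxen and 0.99 ± 0.30 with NO-naproxen. Without controls 3 and 4, which had the lowest values, they were 0.59 and 0.49 and did not meet the criterion, and the NO-naproxen value did not meet it with the array spread as a covariate either.

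Nr1d1, the clock repressor REV-ERBalpha, had intensities of 539, 770, 892 and 493 with naproxen, 257, 988, 1467 and 492 with NO-naproxen and 343, 155, 137 and 166 in controls. In mice it is known to regulate Cyp7a1. Naproxen arrays lay wholly above the controls, and NO-naproxen array 1 lay below control 1. Its log2 fold change was 1.72 ± 0.42 (SE) with naproxen and 1.73 ± 0.42 with NO-naproxen, and both met the criterion in all 23 settings.

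The xenobiotic receptor CAR, Nr1i3, had intensities of 976, 981, 1428 and 869 with naproxen, 516, 1575, 909 and 936 with NO-naproxen and 540, 685, 439 and 639 in controls. Its log2 fold change was 0.86 ± 0.27 (SE) with naproxen and 0.67 ± 0.27 with NO-naproxen. All naproxen arrays and 3 of 4 NO-naproxen arrays lay above the highest control. The fatty acid receptor Ppara measured 0.44 ± 0.25 with naproxen and 0.67 ± 0.25 with NO-naproxen, of which only the NO-naproxen value met the criterion. The NO-naproxen value of Nr1i3 no longer met the criterion in 7 settings (among them without NO-naproxen 2, control 1 or control 3) and that of Ppara in 5 (among them without NO-naproxen 2 or control 4).

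Of the regulators that act most directly on Cyp7a1, 4 are named here for their known roles. Hnf4a, which drives Cyp7a1, measured -0.33 (-0.68 to 0.03) with naproxen and -0.05 (-0.41 to 0.30) with NO-naproxen against control. Its 4 naproxen arrays lay below the 4 controls, as for 2.4% of all probe sets. Nr5a2 measured 0.23 (-0.12 to 0.59) with naproxen and 0.32 (-0.03 to 0.67) with NO-naproxen. Fgfr4 and Klb, the receptor and coreceptor through which the ileal hormone FGF15 represses Cyp7a1 in mice, were also measured. Fgfr4 had a log2 fold change of 0.03 with naproxen and 0.04 with NO-naproxen, and Klb one of 0.27 ± 0.30 (SE) with naproxen and 0.49 ± 0.30 with NO-naproxen. None of these 4 met the criterion. Of 6 other FXR-related genes measured, 0 met it in either comparison with control. The 4 with the smallest p were the proteoglycan Sdc1 (-0.22 with naproxen, -0.06 with NO-naproxen), the phospholipid transporter Abcb4 (0.10 with naproxen, 0.22 with NO-naproxen), Nr0b2 as above and the hormone Fgf21 (-0.07 with naproxen, 0.02 with NO-naproxen).

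**Figure D3:**
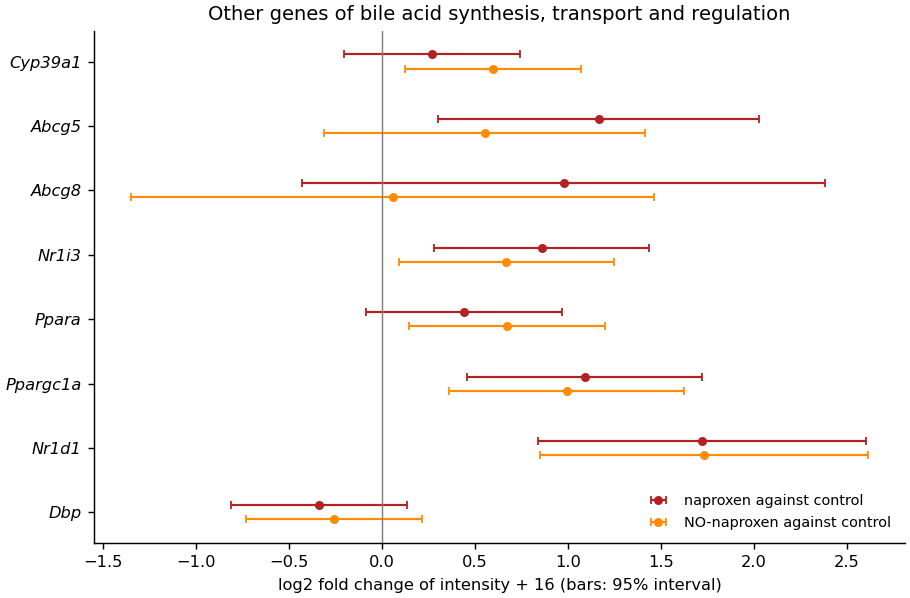
Log2 fold change of intensity + 16 with its 95% interval against control for the genes of the wider lists that met the study's criterion, with Abcg8 and Dbp added for the relations below. Nr1d1, at 1.72 with naproxen and 1.73 with NO-naproxen, lies farthest from 0, and the Abcg8 intervals are the widest.

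Cyp7a1 was then set beside the other genes over the 12 arrays, on the log2 scale. Its levels fell into 2 sets of 6 arrays, parted by a gap of 0.41 (the next widest gap was 0.24), with all 4 naproxen and 2 NO-naproxen arrays below the gap and all 4 controls above. Within the lower 6 arrays Pearson's r of Cyp7a1 with the other 7 genes lay between -0.36 and 0.63, and within the higher 6 between -0.59 and 0.32. Over all 12 arrays 0 of the 7 relations passed a permutation test after Benjamini-Hochberg adjustment. The highest r values were 0.49 for Nr1h4 (adjusted permutation p = 0.377) and 0.48 for Nr0b2 (Spearman's rho 0.41, adjusted permutation p = 0.377 for r and 0.485 for rho, and r = 0.63 without the 2 arrays farthest from the median). These r values include the difference between diets for which Cyp7a1 was chosen. With each array's deviation from its diet mean, r was 0.06 for Nr1h4 and 0.71 for Nr0b2.

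By the rule for likeness, the genes with the highest r over 12 arrays, out of 9832 with mean levels above the olfactory range, were Wnt2 (0.85), Mmp20 (0.84), Pars2 (0.83), Morc1 (0.80) and the clock gene Per3 (0.80). The lowest were Slc25a31 (-0.84), Mab21l1 (-0.81), Duoxa2 (-0.79), Cytl1 (-0.79) and Fmo2 (-0.76). These values are descriptions without a test, and all points share the array. The 5 highest had mean levels from 6.56 to 7.19, near the bound of 6.44, so they are dim probe sets. Among the listed regulators the nearest was Dbp, a clock output factor known to activate Cyp7a1 in rats, with r = 0.75, at place 11 of 9832. Dbp had intensities of 145, 129, 91.0 and 129 with naproxen, 84.9, 161, 192 and 106 with NO-naproxen and 129, 156, 180 and 174 in controls. Its log2 fold change against control was -0.34 (-0.81 to 0.14) with naproxen and -0.26 (-0.73 to 0.22) with NO-naproxen.

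To take the diets out, each array's deviation from its diet mean was used for Cyp7a1 and 62 other genes, the 7 listed ones and the 55 of the wider lists. Every arrangement of arrays within diets, 13824 in all, gave an exact permutation p. The correlation with Cyp7a1 was above 0 for 49 of the 62 genes (79.0%), beside 61.0% of all 19417 other probe sets and 65.6% of those above the olfactory range. At an unadjusted exact p under 0.05 there were 7 of the 62 (11.3%), all with r above 0, beside 2.15% of all probe sets. The 7 were 5 of the 13 other genes on the transport list, 1 synthesis enzyme and 1 regulator. The median r was 0.38 over the 13 transport genes, 0.25 over the 62 and 0.07 over all probe sets. After Benjamini-Hochberg adjustment over all probe sets 0 passed (smallest adjusted exact p = 1), and adjustment over the 62 left 0 as well. The 13824 arrangements are too few for a single probe set to pass the adjustment over all probe sets. The lists were chosen with results of these data known, so these shares are descriptions. With residuals on the array spread 2 of the 62 were under the unadjusted threshold and r of Abcg5 was 0.54, and after median centring 12 were under it, with Slco1a4 past adjustment over the 62.

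The 5 genes from the transport list included an enzyme, the microsomal epoxide hydrolase Ephx1. The others were the sterol pump genes Abcg8 and Abcg5, the basolateral exporter Abcc3, and Slco1a4, a sinusoidal organic anion carrier. Ephx1 had r = 0.92 (rho 0.82, unadjusted exact permutation p = 0.0241 for r), and 0.90 without naproxen 1 and NO-naproxen 2. On these arrays the deviations of Cyp7a1 lay farthest from the median deviation. Abcg8 had r = 0.79 (rho 0.78, unadjusted exact permutation p = 0.0247), Abcc3 0.79 (rho 0.76, 0.0381 in the same test) and Abcg5 0.75 (rho 0.77, 0.0342 in the same test). Slco1a4 had r = 0.77 (rho 0.74, unadjusted exact permutation p = 0.0178). All 5 had an adjusted exact permutation p of 1 over all probe sets. No single probe set could pass that adjustment with the arrangements available.

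On the arrays themselves, Ephx1 had intensities of 6068, 4409, 4611 and 4513 with naproxen, 3636, 6357, 6997 and 3765 with NO-naproxen and 5620, 4549, 5052 and 5124 in controls. Abcc3 had 840, 654, 990 and 586 with naproxen, 468, 1245, 1141 and 639 with NO-naproxen and 809, 976, 504 and 795 in controls. Both were high on NO-naproxen arrays 2 and 3 and low on 1 and 4, as Cyp7a1, Nr0b2, Dbp, Abcg5 and Abcg8 were. The pattern was not particular to bile acid genes. The macrophage markers Clec4f, Marco, Cd68, Cd5l and Csf1r also had their higher NO-naproxen values on arrays 2 and 3. Vsig4, Ptprc, Aif1 and Ctss of the same marker list did not. Neither Ephx1 nor Abcc3 differed between diets beyond its spread. The log2 fold change of Ephx1 was -0.06 (-0.52 to 0.40) with naproxen and -0.03 (-0.49 to 0.43) with NO-naproxen against control. That of Abcc3 was 0.0019 (-0.62 to 0.62) with naproxen and 0.11 (-0.51 to 0.72) with NO-naproxen.

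**Figure D4:**
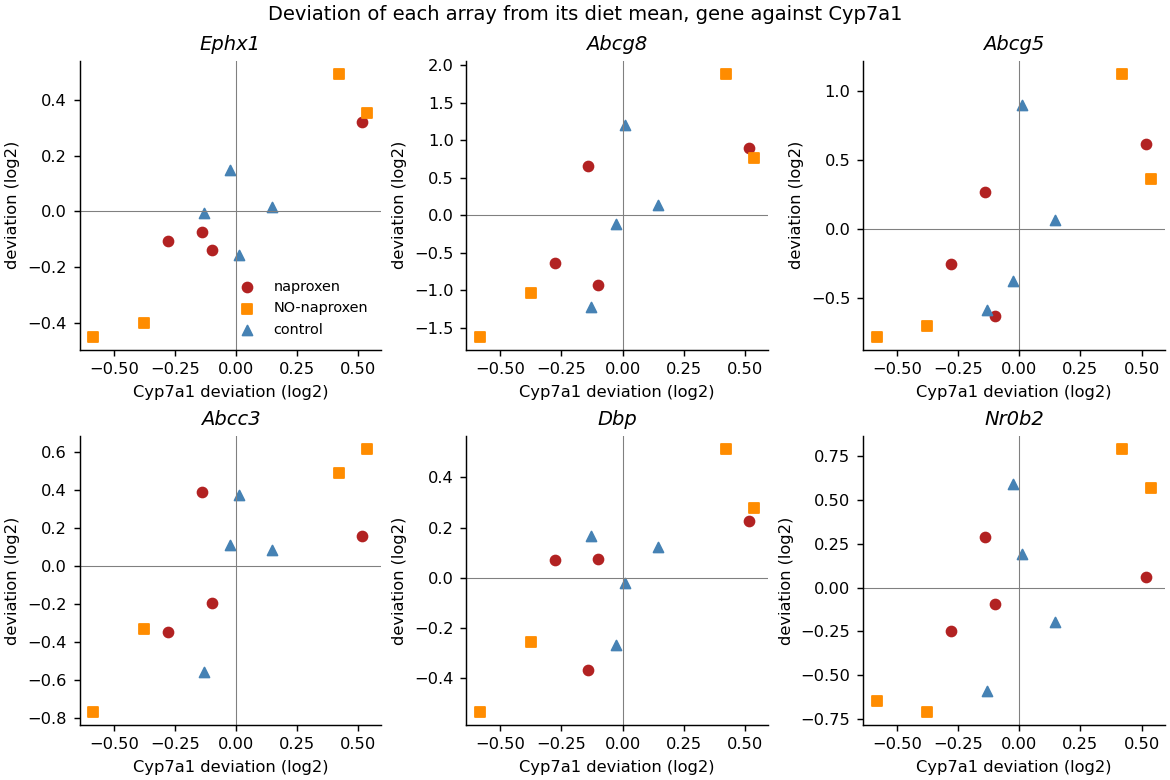
Deviation of each of the 12 arrays from its diet mean (log2 scale) for 6 genes, on the vertical axes, against that of Cyp7a1, on the horizontal axes. The 4 NO-naproxen arrays reach farthest to both sides, and the controls lie within a narrow span of Cyp7a1.

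The 4 NO-naproxen arrays hold much of the within-diet spread of Cyp7a1, whose log2 SD was 0.35 with naproxen, 0.56 with NO-naproxen and 0.11 in controls. Over the 8 naproxen and control arrays alone, with 576 arrangements, r was 0.78 for Ephx1, 0.56 for Abcg8, 0.55 for Slco1a4, 0.54 for Abcg5 and 0.40 for Abcc3. Then 1 of 62 genes had an unadjusted exact permutation p under 0.05, the receptor partner Rxra with r = -0.49, named after its values were seen. Dbp had r = 0.79 over 12 arrays (unadjusted exact permutation p = 0.0643) and 0.40 over the 8. Nr0b2 had r = 0.71 over 12 arrays (unadjusted exact permutation p = 0.109) and 0.17 over the 8. For Hnf4a r was 0.06 over 12 arrays and 0.0056 over the 8, and for Nr1h4 it was 0.06 and 0.21. The remaining genes under the unadjusted threshold were the enzyme Akr1c14 (r = 0.44) and the regulator Klf15 (r = 0.63).

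**Figure D5:**
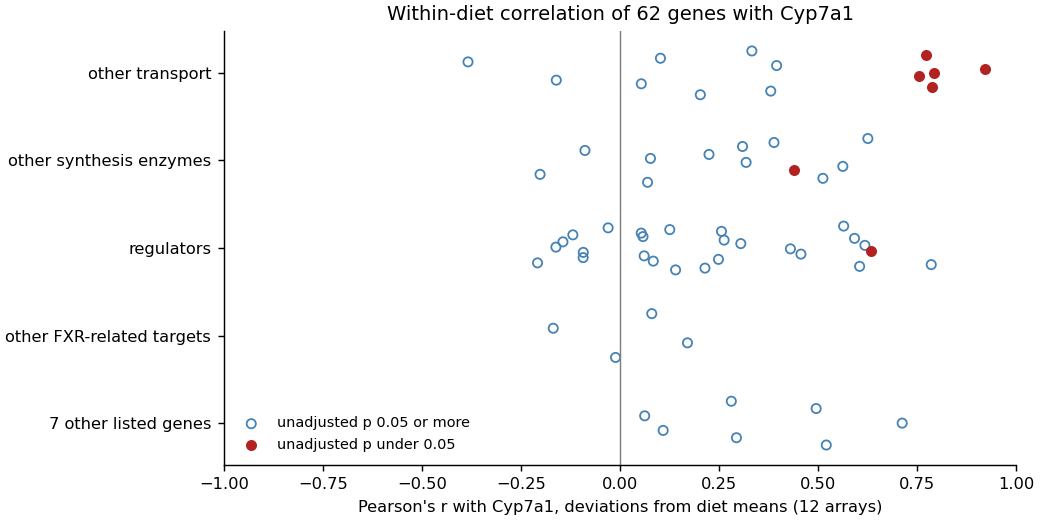
Pearson's r with Cyp7a1 of deviations from diet means (12 arrays) for 62 genes, by list, filled where the unadjusted exact permutation p was under 0.05. Of the 7 filled points 5 lie on the list of other transport genes, which includes the enzyme Ephx1, and 0 of 62 passed after adjustment.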

How the data were processed

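Per the labels' protocols, liver RNA was depleted of ribosomal RNA, biotin-labelled and hybridised to 1 whole-transcript array per rat. The deposited values are linear probe set intensities, which the authors produced in Affymetrix Expression Console 1.1.1; the submitters' processing notes name build rn4. How probes were summarised and normalised is not stated in the labels. The deposited intensities were turned into log2(intensity + 16), which understates changes of dim probe sets.

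Probe sets were named from the platform annotation. Of the 19418, 13327 carried 1 symbol, 620 several and 5471 none. Through Entrez identifiers 13232 matched the RefSeq gene table.

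Groups and replicate numbers came from the labels. All 12 arrays entered 1 fit of limma 3.58.1 (R 4.3.3, lmFit and eBayes, 2-sided), tested on simulated data, with Benjamini-Hochberg adjustment over all probe sets. No label names the test behind the study's criterion, so it was taken from that fit. Correlations used scipy 1.17.1 in Python 3.11.15.

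The members, lists and tests were chosen with earlier results of these data known, and the within-diet correlations were added after the values were seen. Genes were named as follows: all 10 members; of each wider list those past the criterion against control, or else up to 4 with the smallest p; and the 5 highest and 5 lowest correlations with Cyp7a1. Alternatives covered normalization, filters, added constants, array weights, array spread, fold size, a block on the replicate number and leaving out each array. The deviations of same-numbered arrays had correlations between -0.38 and 0.48, all above 0 for NO-naproxen against control (0.04 to 0.48). They were not set against those of differently numbered arrays, so they cannot tell whether the numbers pair the arrays.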

Additional observations from a re-analysis of the deposited data

Results flagged for a closer look

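For 3 of 51 sets of 4 arrays, 1 array stood apart from its group by Dixon's test on the log2 scale, and chance gives about 1 such set in 20. The sodium-dependent bile acid uptake transporter Slc10a1 measured 12.40 in control 2, the lowest of its group, with the nearest other control array at 12.76. The conjugating enzyme Baat measured 11.73 in control 3, the highest of its group, with the nearest other control array at 11.43. The bile acid coenzyme A ligase Slc27a5 measured 11.91 in naproxen 2, the lowest of its group, with the nearest other naproxen array at 12.10.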

How the results depend on the processing

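No probe set passed adjustment with all 12 arrays and the settings of the report, and leaving out 1 array in turn gave 0 to 3 calls for naproxen against control (3 without control 1 and 2 without control 2) and 0 to 4 for NO-naproxen against control (4 without control 2). Array weights gave 2 for NO-naproxen against control. Past the study's criterion were 1135 probe sets with naproxen, 738 with NO-naproxen and 111 between the drugs. For naproxen the count was 752 without the dimmest 30% of probe sets, 191 with 64 added before log2, 332 with the array spread as a covariate, 291 without the 2 narrowest arrays and 88 at a fold of 2, and 574 to 2973 with 1 array left out. For NO-naproxen it was 154 with 64 added, 2527 with array weights, 236 with the covariate, 215 without the 2 narrowest arrays and 55 at a fold of 2, and 284 to 2570 with 1 array left out. Between the drugs it was 40 without dim probe sets, 299 with 1 added, 8 with 64 added, 304 with array weights and 3 at a fold of 2, and 98 to 331 with 1 array left out. The cause of these shifts was not tested. The split of higher to lower was 170 to 965 with naproxen (371 to 603 after quantile normalization, 463 to 483 after median centring, 139 to 193 with the covariate) and 346 to 392 with NO-naproxen (632 to 266 after median centring, 144 to 92 with the covariate). With the replicate block the counts were 1193, 820 and 120, with 0 adjusted calls, and whether the numbers pair the arrays is not known. The log2 fold change of Cyp7a1 with NO-naproxen against control ranged from -0.60 to -0.20 and met the criterion with array weights alone. With NO-naproxen against naproxen it ranged from 0.48 to 0.85, as a description. For the other 7 genes, 50 of 483 values changed sign, and 1 of 21 met the criterion in any setting, Cyp27a1 with NO-naproxen against control under array weights (-0.62). No listed gene had several probe sets, so their mean could not be tried. The 7 relations over 12 arrays had 0 calls in all settings. The settings for the 62 within-diet relations were chosen after seeing the data. After median centring 12 of the 62 were under the unadjusted threshold (1 adjusted, Slco1a4). It was 2 with residuals on the array spread, 1 without the NO-naproxen arrays and 2 to 8 with 1 array left out. There were 0 adjusted calls in these. Without the NO-naproxen arrays the 576 arrangements are too few for a single gene to pass adjustment over the 62. With 4 arrays per diet, signal near the olfactory range limits what dim genes can show.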
